A study of Mus musculus with 33 samples.

Results

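The naive pluripotency network is described here through 10 genes of the 37991 in the deposited count tables: *Pou5f1*, *Nanog*, *Sox2*, *Klf2*, *Klf4*, *Klf5*, *Zfp42*, *Esrrb*, *Tbx3* and *Dppa3*. The genes were chosen by name, all 10 were found once in each of 33 RNA-seq libraries, and all 10 passed the filter on low counts in each of the 22 comparisons fitted. The cells were E14TG2a mouse embryonic stem cells (mESCs), a male feeder-independent line, grown in serum with LIF on gelatin. CRISPR/Cas9 clones targeted at *Neil1* (#7, #9 and #11) or *Neil2* (#1, #11 and #14), which encode DNA glycosylases of base excision repair, were set beside control clones (#1, #4 and #7) that had received the empty vector and the same puromycin selection. A single clone targeted at *Apex1*, the apurinic/apyrimidinic endonuclease of the same pathway, was sequenced as a technical pair of libraries (#46). Each clone was taken as mESCs, as embryoid bodies (EBs) at day 8 after LIF withdrawal, and as EBs that received 5 µM retinoic acid from day 4 (EBs + RA). Each *Neil1*, *Neil2* and control group therefore held 3 clones, and each *Apex1* group held 1 clone, so its tests assume that this clone varies like the control clones. A clone is a line grown from a single edited cell, and differences between clones of 1 genotype enter the error of every comparison.

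Naive pluripotency is the state of the preimplantation epiblast that mESCs hold in culture. POU5F1 (OCT4) and SOX2 bind DNA as partners and are shared by naive and later pluripotent cells, whereas NANOG, ESRRB, the Krüppel-like factors KLF2, KLF4 and KLF5, and TBX3 form the layer that keeps mESCs naive under LIF. *Zfp42* (REX1) is the usual reporter gene of the naive state, and *Dppa3* (STELLA) encodes a protein of oocytes, preimplantation embryos and primordial germ cells that protects methylated DNA. LIF withdrawal lets mESCs leave this state, and retinoic acid is known to drive EB cells towards neural fates while the network is shut down.

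Gene counts per library ran from 21523742 to 48350904 (median 26720028). Levels are given as CPM, counts scaled to a common library size, after TMM scaling for library composition. Whole-gene counts did not check the *Neil1*, *Neil2* and *Apex1* deletions, which remove part of each gene. *Neil1* lay between 1.42 and 31.6 CPM in the *Neil1* libraries and between 5.89 and 9.83 CPM in the controls, and *Neil2* lay between 4.87 and 18.3 CPM in the *Neil2* libraries and between 3.32 and 15.1 CPM in the controls. *Apex1* counts were higher rather than lower in the libraries labelled Apex1, at 56.0 to 85.6 CPM against 7.69 to 17.9 CPM in the controls. The paper describes a check of this clone by genotyping PCR and by western blot for APEX1. The counts neither bear out nor contradict the label, so directions for that clone are given for "the libraries labelled Apex1". In the mESC library of *Neil1* clone #11, 352 of 518 expressed sex-chromosome genes stood at 0, and none of the 10 genes was among them. In the EB and EB + RA libraries of the same clone, 0 of 506 and 1 of 514 such genes stood at 0. *Sox2* lies within an intron of *Sox2ot* and shares no exon bases with it, while *Tbx3* shares 115 exon bases (2.14% of its exons) with the antisense gene *Gm2301*, and the library kit did not mark strand. All values come from bulk cultures, in which fewer expressing cells and less RNA per cell cannot be told apart.

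The promoters of 3 members are shown because they hold letters that factors of the network are known to bind, and they were picked for those matches. RefSeq windows (GRCm38.p6, 250 bases before to 50 after a start site) were found for 7 of the 10 genes: *Pou5f1*, *Nanog*, *Sox2*, *Klf2*, *Klf4*, *Zfp42* and *Esrrb*. Capitals mark matches on either strand to the POU5F1 octamer (ATGCAAAT), a SOX-octamer composite (the SOX core CATTGT, then any base, then ATGCAAA; a match to it also matches the SOX core), a KLF core (GGGNGTGG) and a nuclear receptor site (AGGTCA). The 200 bases before the start site read, 5′ to 3′ along the gene:
Pou5f1 (chr17:35505832-35506031, plus strand): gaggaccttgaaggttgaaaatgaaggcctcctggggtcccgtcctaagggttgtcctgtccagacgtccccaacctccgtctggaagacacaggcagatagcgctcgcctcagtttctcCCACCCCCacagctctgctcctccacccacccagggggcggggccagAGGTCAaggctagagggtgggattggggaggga
Nanog (chr6:122707289-122707488, plus strand): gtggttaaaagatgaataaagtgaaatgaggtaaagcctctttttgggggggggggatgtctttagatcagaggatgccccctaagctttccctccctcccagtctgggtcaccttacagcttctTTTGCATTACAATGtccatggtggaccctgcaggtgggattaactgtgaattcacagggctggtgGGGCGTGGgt
Zfp42 (chr8:43307010-43307209, minus strand): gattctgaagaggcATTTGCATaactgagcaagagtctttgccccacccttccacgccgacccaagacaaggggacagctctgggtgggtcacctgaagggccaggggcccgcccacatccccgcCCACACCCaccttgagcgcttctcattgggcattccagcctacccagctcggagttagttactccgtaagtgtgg
The *Nanog* promoter held the SOX-octamer composite, *Zfp42* the octamer, and all 3 a KLF core. *Pou5f1* had a nuclear receptor site 33 to 28 bases before its start site. Of the 7 members with a window, 1 held the octamer, 3 the KLF core, 3 the SOX core and 3 the nuclear receptor letters, and *Klf2* and *Klf4* held none of the motifs searched. Of 32544 mouse promoter windows, 1.75% held the octamer, 17.7% the KLF core, 12.4% the SOX core and 16.2% the nuclear receptor letters. The composite was in 2 windows, both of *Nanog*, and its spelling was chosen with the *Nanog* sequence in view. No member window held the ESRRB letters CAAGGTCA (1.53% of windows) or the STAT3 palindrome TTCCNGGAA (1.16%).

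In control mESCs the 10 genes spanned a wide range of expression. Per kilobase of exon, *Zfp42* stood at 495 ± 8.36 CPM per kb (SD, n = 3), *Pou5f1* at 392 ± 4.92, *Nanog* at 331 ± 35.4 and *Sox2* at 199 ± 22.8. *Klf2* (123 ± 12.1) led a middle group with *Esrrb* (90.7 ± 9.73) and *Klf4* (85.8 ± 12.3), and *Klf5* (42.5 ± 12.4), *Dppa3* (31.3 ± 9.46) and *Tbx3* (29.5 ± 3.86) were lowest. *Esrrb* and *Klf4*, and *Klf5*, *Dppa3* and *Tbx3*, did not differ from their neighbours in this order beyond the spread between clones. The summed level of the 10 genes was 4237, 4255 and 4418 CPM in control clones #1, #4 and #7. It was 4167 to 4511 CPM in the *Neil1* clones, 4258 to 4551 in the *Neil2* clones and 3432 in the clone labelled Apex1. The *Neil1* and *Neil2* ranges enclosed or overlapped the control range at this stage, and the clone labelled Apex1 lay below it.

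**Figure D1:**
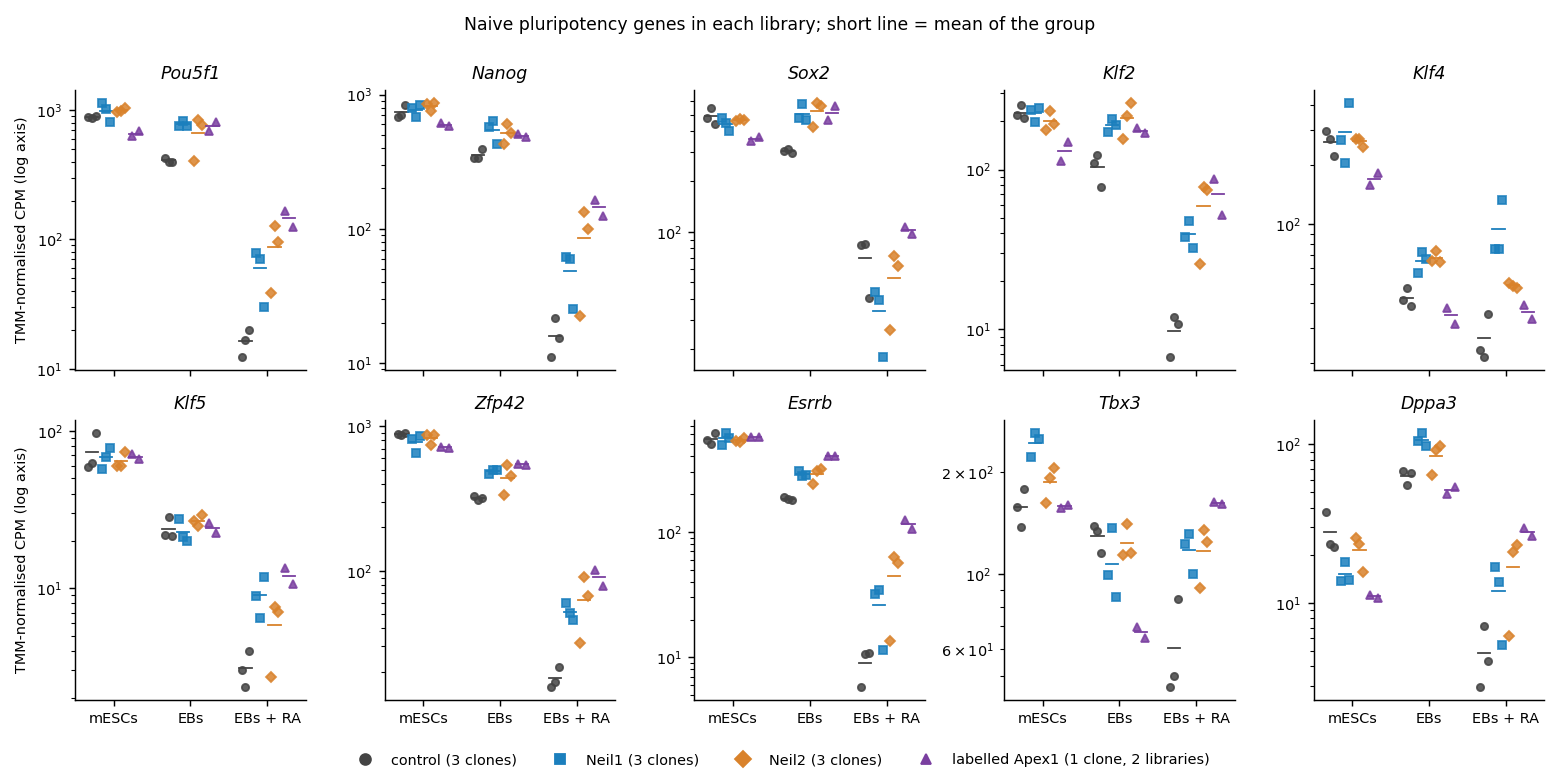
Level of each of the 10 genes in all 33 libraries (TMM-normalised CPM, log axis) by stage and genotype; each point is a library and each short line the mean of a group. The genotypes lie close together as mESCs, whereas in EBs + RA the control points are lowest for *Pou5f1*, *Nanog*, *Klf2*, *Zfp42* and *Esrrb*, and *Sox2* shows another order.

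The first comparison followed the loss of the network in control EBs after LIF withdrawal. Of the 10 genes, 8 fell and *Dppa3* rose, beside 38.7% of 15799 genes called in either direction (edgeR quasi-likelihood test; a call needs an adjusted p under 0.1 and a change of more than 0.5 log2 units). The median log2 fold change of the 10 genes was -1.16, against -0.02 over all genes tested. *Pou5f1* went from 884, 875 and 897 CPM in clones #1, #4 and #7 as mESCs to 426, 399 and 399 CPM as EBs, a log2 fold change of -1.15 ± 0.10 (SE, adjusted p = 5.12e-05). All 3 EB values lay under all 3 mESC values, and 46.1% ± 1.88 (SD, n = 3) of the mESC level was left. *Sox2* kept the largest share of the genes that fell, 62.2% ± 5.32, and *Nanog* kept 48.0% ± 0.898. The Krüppel-like factors split: *Klf4*, a direct target of LIF signalling, dropped 6.32-fold to 41.7, 47.6 and 38.7 CPM (log2 fold change -2.66 ± 0.15), while *Klf2* kept 45.4% ± 7.49 and *Klf5* 34.8% ± 11.9. *Zfp42* kept 36.1% ± 1.19 and *Esrrb* 33.7% ± 4.09. *Tbx3* stood at 159, 138 and 179 CPM in mESCs and at 139, 134 and 116 CPM in EBs, a log2 fold change of -0.33 ± 0.13 that did not pass the threshold on size (adjusted p = 0.0734). *Dppa3* moved the other way, from 37.6, 23.4 and 22.6 CPM to 68.4, 55.8 and 65.8 CPM, a 2.22-fold rise (adjusted p = 0.00174). Each of these 9 calls held when any 1 control clone was left out.

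Retinoic acid took the network to a low level in control EBs. All 10 genes were lower in EBs + RA than in mESCs, beside 29.4% of 16232 genes called lower, and all 10 were lower than in EBs without RA, beside 20.7% of 15919 genes called lower. The median log2 fold change from mESCs was -4.57, against -0.01 over all genes. *Pou5f1* was left at 12.3, 16.7 and 20.0 CPM, 1.84% ± 0.423 (SD, n = 3) of its mESC level. *Esrrb* (1.66% ± 0.535), *Zfp42* (2.04% ± 0.323) and *Nanog* (2.17% ± 0.772) ended at a like share, followed by *Klf2* (4.30% ± 1.08) and *Klf5* (4.33% ± 0.729). *Klf4* kept 10.5% ± 4.62, *Sox2*, which neural progenitors also express, 14.1% ± 4.34, *Dppa3* 19.2% ± 11.4 and *Tbx3* 37.6% ± 9.08. *Klf4* was already low in EBs without RA and differed 1.57-fold between EBs and EBs + RA, whereas *Pou5f1* differed 24.4-fold between them. Both EB groups were harvested at day 8, so when *Klf4* fell relative to the start of RA was not measured. The *Klf4* call between EBs and EBs + RA was lost without control clone #1 (adjusted p = 0.138) or #4 (adjusted p = 0.149). Beside these values, the summed level of 7 neuroectoderm genes was 73.3 to 85.9 CPM in control EBs and 264 to 479 CPM in control EBs + RA, and 6 of the 7 were called higher.

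**Figure D2:**
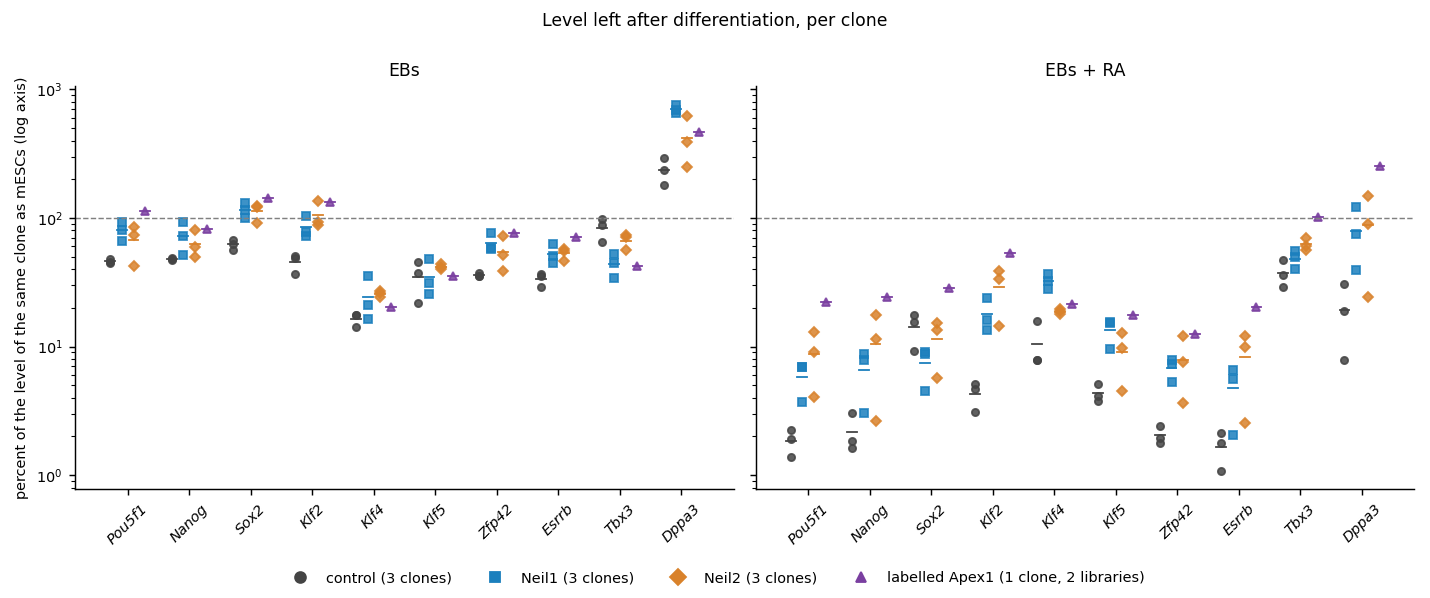
Share of the mESC level of the same clone that was left in EBs (left) and EBs + RA (right), in percent on a log axis; each point is a clone, each short line the mean of a genotype and the dashed line the mESC level. In EBs + RA the control clones sit between 1.08% and 2.13% for *Esrrb*, and the clone labelled Apex1 at 20.3%.

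Before differentiation, none of the 10 genes was called in the mutants. In mESCs 0 of 10 passed for *Neil1* (1.82% of 15569 genes called), 0 for *Neil2* (1.83% of 15615) and 0 for the clone labelled Apex1 (0% of 16695) by edgeR. At an unadjusted p under 0.05 the counts were 2, 0 and 3, and DESeq2 called 2, 0 and 1. The matching shares of all genes were not set beside these counts, so they are not read as particular to the 10 genes. The genes nearest to a call in the *Neil1* clones were *Tbx3*, at 223, 263 and 251 CPM against 159, 138 and 179 in controls (log2 fold change 0.62 ± 0.15, adjusted p = 0.116), and *Dppa3*, at 13.8, 18.1 and 14.0 CPM against 37.6, 23.4 and 22.6 (-0.88 ± 0.23, adjusted p = 0.137). Neither pair of groups overlapped, and without control clone #7 both genes passed (adjusted p = 0.0342 and 0.0415). In the libraries labelled Apex1, *Dppa3* stood at 11.3 and 10.7 CPM (-1.34 ± 0.35, adjusted p = 0.324), *Klf2* at 114 and 148 CPM against 218, 253 and 211 (-0.81 ± 0.24, adjusted p = 0.325) and *Klf4* at 158 and 182 CPM against 296, 270 and 222 (-0.63 ± 0.26, adjusted p = 0.37). Without control clone #7, the log2 fold changes of *Dppa3*, *Klf2*, *Klf4* and *Sox2* in that comparison were -1.46, -0.86, -0.74 and -0.52. Without control clone #4, that of *Dppa3* was -1.45. Such a fit holds 1 sample labelled Apex1 and 2 control clones, so its p is not given in any comparison. Some genes gained a call in such fits and others lost one. As mESCs, control clones #1 and #4 were closer to each other (chi-squared per degree of freedom 9.55) than either was to #7 (61.3 and 62.1). *Pou5f1* and *Nanog* differed from controls by a log2 fold change of 0.14 ± 0.15 and 0.03 ± 0.14 in the *Neil1* clones, and by 0.15 ± 0.10 and 0.13 ± 0.12 in the *Neil2* clones.

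The change within each mutant genotype was followed next. From mESCs to EBs, 5 of the 10 genes fell and *Dppa3* rose in the *Neil1* clones (27.9% of 15371 genes called in either direction), and 6 fell and *Dppa3* rose in the *Neil2* clones (27.4% of 15554 genes). Their median log2 fold changes were -0.59 and -0.64. *Klf4*, *Klf5*, *Zfp42*, *Esrrb* and *Tbx3* fell in both genotypes. *Klf4* fell by 2.18 ± 0.25 on the log2 scale in *Neil1* and by 1.96 ± 0.13 in *Neil2* clones, and *Tbx3*, not called in controls, fell by 1.2 ± 0.17 and by 0.60 ± 0.14. *Sox2* had log2 fold changes of 0.19 ± 0.13 and 0.17 ± 0.15, and *Klf2* of -0.26 ± 0.13 and 0.07 ± 0.20; none of these 4 values passed. *Nanog* fell in the *Neil2* clones (-0.68 ± 0.15, adjusted p = 0.0134) and sat at the size limit in the *Neil1* clones (-0.50 ± 0.16, adjusted p = 0.0426; called with the clone as a replicate block, adjusted p = 0.0362). *Pou5f1* in the *Neil2* clones was at -0.58 ± 0.24 (adjusted p = 0.105; with the block -0.64 ± 0.23, adjusted p = 0.077). *Dppa3* rose 6.96-fold and 3.89-fold. Without *Neil2* clone #14 the calls of *Nanog*, *Zfp42* and *Tbx3* in the *Neil2* clones were lost (adjusted p = 0.228, 0.152 and 0.311) and the count fell to 4; without *Neil2* clone #11 *Pou5f1* was called (adjusted p = 0.0892), and without *Neil1* clone #9 *Nanog* was (adjusted p = 0.0396). In the clone labelled Apex1, for which the change from mESCs was not tested on its own, *Pou5f1* stood at 114% of its mESC level in EBs, *Sox2* at 144%, *Klf2* at 134%, *Klf4* at 20.4% and *Dppa3* at 466%. Its mESC levels of these genes were 658, 357, 131, 170 and 11.0 CPM. Control means were 885, 488, 227, 263 and 27.9 CPM, so the shares start from a lower level. In EBs its *Dppa3* was at 51.3 CPM, under the control mean of 63.3 CPM.

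Each mutant was then set against control EBs. In the *Neil1* EBs 8 of 10 were higher and none lower (10.4% of 15479 genes called higher), in the *Neil2* EBs 6 were higher and none lower (8.65% of 15575), and in the EBs labelled Apex1 5 were higher and *Tbx3* lower (16.6% of 16848 called in either direction). The median log2 fold changes were 0.63, 0.60 and 0.63, against values between -0.01 and 0.02 over all genes. *Pou5f1* was at 750, 825 and 753 CPM in the *Neil1* clones against 426, 399 and 399 in controls (log2 fold change 0.92 ± 0.08, adjusted p = 1.39e-05), with no overlap. In the *Neil2* clones #1, #11 and #14 it was at 407, 841 and 765 CPM, so that clone #1 fell within the control values and the other two lay above them (0.72 ± 0.24, adjusted p = 0.0916). The libraries labelled Apex1 had 686 and 812 CPM (0.90 ± 0.11, adjusted p = 0.00155). *Sox2* was higher in all 3 genotypes, by 0.74 ± 0.09, 0.80 ± 0.15 and 0.79 ± 0.10, and every mutant clone was above every control clone. *Klf2*, whose product can sustain the naive state when overexpressed, was higher by 0.86 ± 0.15, 1.03 ± 0.22 and 0.77 ± 0.23. *Esrrb* was higher by 0.65 ± 0.08, 0.65 ± 0.13 and 1.15 ± 0.10.

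Other members differed between the genotypes in what passed. *Nanog* was called in *Neil1* EBs (575, 634 and 429 CPM against 334, 336 and 396) and *Neil2* EBs (426, 607 and 515 CPM), and in the EBs labelled Apex1 missed the size limit (0.49 ± 0.13, adjusted p = 0.0421). *Klf4* was higher in *Neil1* and *Neil2* EBs (0.61 ± 0.12 and 0.67 ± 0.13) and at -0.28 ± 0.16 in the EBs labelled Apex1. *Zfp42* passed in *Neil1* EBs (0.60 ± 0.07) and in those labelled Apex1 (0.78 ± 0.10), but not in *Neil2* EBs (0.46 ± 0.17, adjusted p = 0.127). *Dppa3* passed in *Neil1* EBs (105, 119 and 97.2 CPM against 68.4, 55.8 and 65.8), and *Tbx3* was lower in the EBs labelled Apex1 (70.0 and 64.6 CPM against 139, 134 and 116). *Klf5* was called in none of the 3 comparisons, with values from -0.07 to 0.17. Differences between the mutant genotypes themselves were not tested.

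The EB calls depended on the fit. With all genotypes and stages in 1 fit, the counts fell from 8 to 4 (*Neil1*), from 6 to 2 (*Neil2*) and from 6 to 1 (labelled Apex1). That fit shared 1 estimate of the spread, and its low-count filter and TMM scaling also ran over all libraries. Which of these lowered the counts was not tested. The share of all genes called in that fit was not set beside them. All 8 *Neil1* calls held without any 1 clone. For *Neil2*, *Pou5f1* lost its call without any of the control clones or without *Neil2* clone #11 or #14 (adjusted p between 0.181 and 0.276), and *Nanog* lost it without control clone #1 or #4 or *Neil2* clone #11 or #14 (0.113 to 0.232). Without *Neil2* clone #1, *Zfp42* and *Dppa3* were called as well (adjusted p = 0.00257 and 0.00534). In the EBs labelled Apex1 the *Klf2* call was lost without control clone #1 (log2 fold change 0.81). *Nanog* was at 0.59 without control clone #7 and at 0.53 without the second technical library. Around *Esrrb* on chromosome 12, the median gene within a 20 Mb window was 0.22 to 0.52 (log2) higher in the libraries labelled Apex1 than in the control mean at the 3 stages, less than the difference of *Esrrb* itself in EBs, and its part in that difference was not tested.

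**Figure D3:**
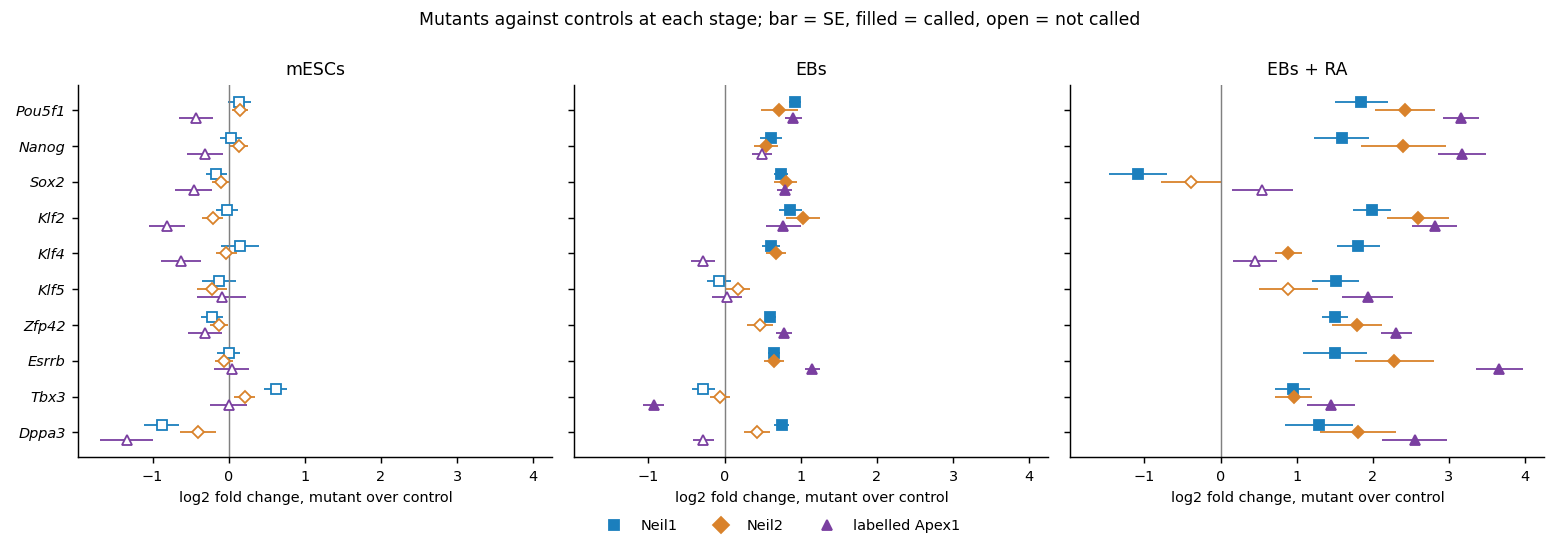
Log2 fold change of each gene in *Neil1* and *Neil2* clones and in the libraries labelled Apex1 over controls, with its SE, as mESCs, EBs and EBs + RA; filled symbols were called and open ones were not. No symbol is filled in mESCs, and in EBs + RA *Sox2* is the only gene with a filled symbol left of 0, at -1.08 in the *Neil1* clones.

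The largest differences were found after RA. In *Neil1* EBs + RA 9 of the 10 genes were higher and *Sox2* lower (41.1% of 16019 genes called in either direction, 21.2% higher), in *Neil2* EBs + RA 8 were higher and none lower (18.3% of 16055 called higher), and in the EBs + RA labelled Apex1 8 were higher and none lower (5.32% of 16792 called higher). The median log2 fold changes were 1.5, 1.80 and 2.43, against values from -0.02 to 0 over all genes. The network was thus higher than in controls, and still far under its mESC level: *Neil1* and *Neil2* clones each had 9 of 10 genes lower in EBs + RA than in their own mESCs (27.5% of 15940 and 27% of 16082 genes called lower). *Dppa3* was the exception in both, with -0.35 ± 0.36 and -0.36 ± 0.44.

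Of the core factors, *Pou5f1* was at 78.4, 70.5 and 30.1 CPM in *Neil1* clones #7, #9 and #11, at 38.9, 128 and 95.4 CPM in *Neil2* clones #1, #11 and #14, and at 167 and 125 CPM in the libraries labelled Apex1, against 12.3, 16.7 and 20.0 CPM in controls. Every mutant library was above every control library, and the log2 fold changes were 1.85 ± 0.35 (adjusted p = 0.00572), 2.42 ± 0.39 (adjusted p = 0.00319) and 3.16 ± 0.24 (adjusted p = 0.0121). Of the mESC level, 5.84% ± 1.83 was left in *Neil1*, 8.71% ± 4.51 in *Neil2* and 22.2% in the clone labelled Apex1. The mESC level of *Pou5f1* in that clone was 658 CPM, against 885 CPM in controls. *Nanog* followed the same pattern, at 61.6, 59.3 and 25.4 CPM in *Neil1*, 22.5, 133 and 98.8 CPM in *Neil2* and 165 and 124 CPM in the libraries labelled Apex1, against 11.0, 21.7 and 15.3 CPM. Its lowest *Neil2* value was within 1 CPM of the highest control, and its log2 fold changes were 1.59 ± 0.36, 2.40 ± 0.56 and 3.17 ± 0.31.

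*Sox2* stood apart from its partner. It was at 84.0, 84.9 and 40.3 CPM in control EBs + RA, at 43.6, 39.3 and 17.9 CPM in *Neil1* clones and at 26.0, 72.1 and 62.3 CPM in *Neil2* clones, and at 107 and 97.2 CPM in the libraries labelled Apex1. The *Neil1* and *Neil2* clones overlapped the controls through control clone #7, the lowest of the 3. The *Neil1* difference passed (-1.08 ± 0.38, adjusted p = 0.0572), and was not called without control clone #1 (adjusted p = 0.177) or #4 (adjusted p = 0.164); the others did not pass (-0.39 ± 0.39 and 0.55 ± 0.40). Neural genes were measured beside it: the summed level of the 7 neuroectoderm genes was 264 to 479 CPM in control EBs + RA, 39.5 to 55.7 CPM in *Neil1*, 41.5 to 52.9 CPM in *Neil2* and 76.2 to 80.0 CPM in those labelled Apex1. All 7 were called lower in each mutant, and the share of all genes called lower was not set beside this count. None was at 0 in all libraries of a group, and their part in the *Sox2* values was not tested.

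Among the Krüppel-like factors, *Klf2* was higher in all 3 mutants. It was at 38.1, 47.7 and 32.6 CPM in *Neil1*, 25.6, 77.6 and 74.8 CPM in *Neil2* and 87.8 and 51.9 CPM in the libraries labelled Apex1, against 6.70, 11.9 and 10.8 CPM in controls. The groups did not overlap, and 17.8% ± 5.46, 28.9% ± 12.8 and 53.4% of the mESC level were left, against 4.30% ± 1.08 in controls. As mESCs, *Klf2* was at 131 CPM in the clone labelled Apex1 and 227 CPM in controls. *Klf4* was highest in the *Neil1* clones, at 75.0, 75.1 and 133 CPM, against 50.6, 48.9 and 48.0 CPM in *Neil2*, 39.1 and 33.1 CPM in the libraries labelled Apex1 and 23.2, 21.3 and 35.2 CPM in controls. Its log2 fold changes were 1.81 ± 0.28, 0.89 ± 0.18 and 0.45 ± 0.29, and the last did not pass (adjusted p = 0.422). Without control clone #7 that last value was 0.69. *Klf5* was low in all groups, from 2.35 to 13.4 CPM. It was higher in *Neil1* (1.51 ± 0.31) and in the libraries labelled Apex1 (1.93 ± 0.34), and not called in *Neil2* (0.89 ± 0.39, adjusted p = 0.115), where it was called without *Neil2* clone #1 (adjusted p = 0.0113) or control clone #7 (adjusted p = 0.0887).

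The remaining naive genes were higher in all 3 mutants. *Zfp42*, the naive reporter gene, was at 59.9, 51.4 and 45.5 CPM in *Neil1*, 31.8, 90.03 and 66.5 CPM in *Neil2* and 102 and 79.0 CPM in the libraries labelled Apex1, against 15.7, 17.1 and 21.7 CPM, with no overlap and log2 fold changes of 1.5 ± 0.17, 1.79 ± 0.33 and 2.31 ± 0.20. *Esrrb*, an orphan nuclear receptor, was at 32.2, 34.3 and 11.5 CPM, at 13.4, 63.5 and 56.3 CPM and at 124 and 106 CPM, against 5.79, 10.6 and 10.9 CPM. Its lowest values in *Neil1* and *Neil2* lay close above the highest control, and the fold changes were 2.83, 4.86 and 12.6. *Tbx3*, a T-box factor also expressed in endoderm, was at 123, 131 and 100 CPM in *Neil1*, at 90.9, 135 and 125 CPM in *Neil2* and at 164 and 161 CPM in the libraries labelled Apex1, against 46.3, 49.9 and 84.5 CPM. The *Neil1* clones had 99.3, 137 and 85.8 CPM as EBs without RA, and in the clone labelled Apex1 102% of the mESC level was present. The summed level of 9 endoderm genes in the same libraries was 135 to 522 CPM in controls, 587 to 1149 in *Neil1*, 185 to 647 in *Neil2* and 208 to 212 in those labelled Apex1. Of these genes 5, 1 and 0 were called higher, and their part in the *Tbx3* values was not tested.

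*Dppa3* was also higher than in controls, at a low level. It was at 16.8, 13.6 and 5.49 CPM in *Neil1*, at 6.19, 21.1 and 23.3 CPM in *Neil2* and at 29.6 and 26.5 CPM in the libraries labelled Apex1, against 2.96, 7.21 and 4.31 CPM. *Neil1* clone #11 and *Neil2* clone #1 overlapped the controls, and the log2 fold changes were 1.29 ± 0.45 (adjusted p = 0.0546), 1.80 ± 0.50 (adjusted p = 0.0267) and 2.55 ± 0.43 (adjusted p = 0.0364). Of its mESC level, 78.7% ± 41.6, 87.6% ± 62.5 and 255% were present, against 19.2% ± 11.4 in controls. The mESC means behind these shares were 15.3, 21.6 and 11.0 CPM, against 27.9 CPM in controls, and a lower mESC level raises the share. The *Neil1* call was lost without control clone #1 or #7 or *Neil1* clone #7 or #9 (adjusted p from 0.125 to 0.17). The *Neil2* call was lost without control clone #1 (adjusted p = 0.102). For the libraries labelled Apex1 the call was lost without control clone #7 (log2 fold change 2.47). Because *Dppa3* is also a germ cell gene, 8 germline genes were read beside it: their summed level was 77.4 to 114 CPM in control EBs + RA, 255 to 319 in *Neil1*, 254 to 278 in *Neil2* and 183 to 203 in those labelled Apex1. Of the 8, 5, 6 and 4 were called higher and none lower, and their part in the *Dppa3* values was not tested.

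Of the RA calls, 8 of 10 in *Neil1*, 7 of 8 in *Neil2* and 4 of 8 in the comparison of the libraries labelled Apex1 held without any 1 clone. In the last, *Nanog* and *Dppa3* were lost without control clone #7 (log2 fold changes 3.13 and 2.47). *Klf5* and *Tbx3* were lost without control clone #4 (1.77 and 1.33). Each clone was also set against the control mean, since clones of 1 genotype did not respond alike. Over the 10 genes the median ratio to the control mean was 3.39 and 2.83 in *Neil1* clones #7 and #9 and 1.75 in clone #11, and it was 4.67 and 4.24 in *Neil2* clones #11 and #14 and 1.5 in clone #1. The clone labelled Apex1 had a median ratio of 5.39. *Neil2* clone #1 was also nearest to controls as EBs (median ratio 1.16, against 1.69 and 1.52), and as mESCs all 6 *Neil* clones had median ratios between 0.915 and 1.04. *Neil1* clone #11 had the highest *Klf4* of all EBs + RA, 5.01 times the control mean, and the lowest *Sox2*, 0.257 times. In the summed level, clone #1 of *Neil2* reached 309 CPM against 777 and 657 CPM in clones #11 and #14, and controls had 211 to 247 CPM.

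**Figure D4:**
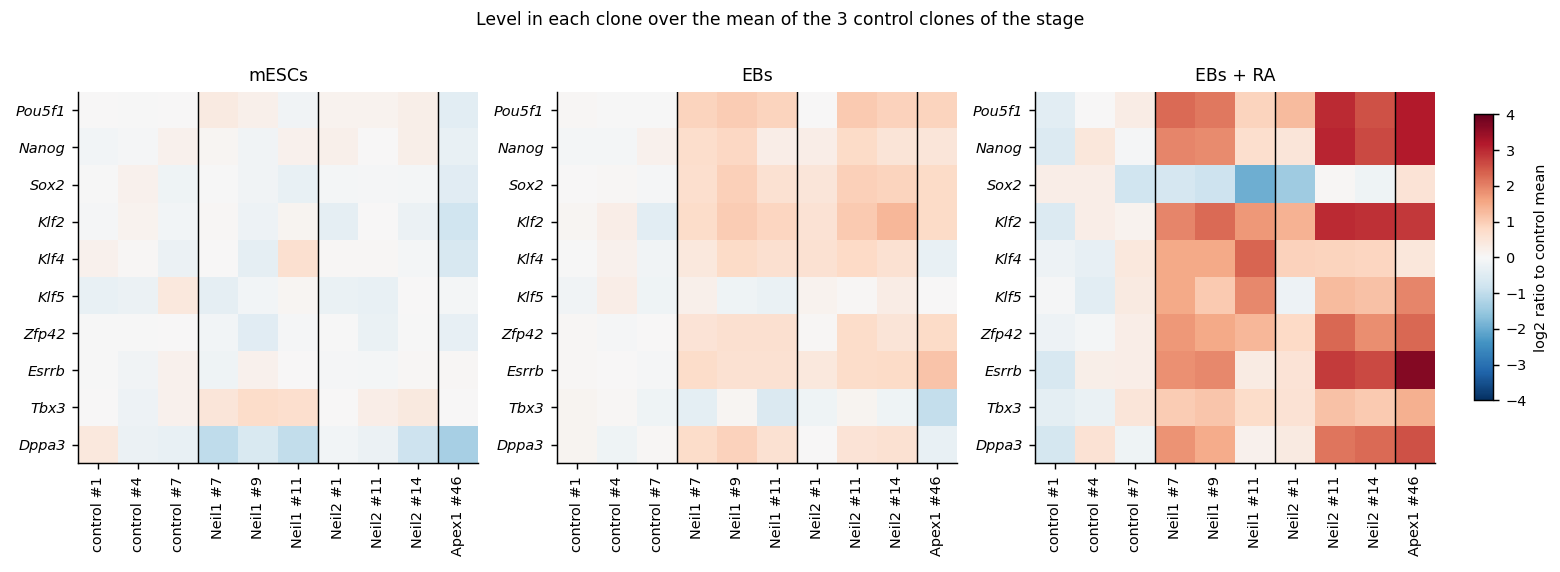
Log2 ratio of each clone to the mean of the 3 control clones for every gene (colour scale from -4 to 4), with a panel for each stage and black lines between genotypes. In EBs + RA, *Neil1* clone #11 and *Neil2* clone #1 are paler than the other clones of their genotypes for *Pou5f1*, *Nanog* and *Esrrb*, and *Sox2* is blue in 5 of the 6 *Neil* clones.

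Whether the change between stages itself differed from controls was tested as an interaction. For the step to EBs, 7 of the 10 genes were called in *Neil1* (10.1% of 16341 genes), 4 in *Neil2* (10.2% of 16387) and 5 in the libraries labelled Apex1 (4.95% of 17217). For the step to EBs + RA, the counts were 8 (24.3% of 16980), 7 (23% of 16990) and 7 (3% of 17728). The median differences of log2 fold changes were 0.73, 0.63 and 1.06 to EBs, and 1.68, 2.05 and 3.04 to EBs + RA, against at most 0.09 over all genes. *Tbx3* in *Neil1* (-0.88 ± 0.23) was the one called difference below 0, its level having fallen more than in controls. Against controls, *Tbx3* in *Neil1* was at 0.62 in mESCs and at -0.28 in EBs, neither called. *Klf5* was not called in any of the 3 genotypes to EBs, and *Sox2* in none of them to EBs + RA (-0.88 ± 0.44, -0.30 ± 0.44 and 1.00 ± 0.51). Single clones decided many of these calls. In the *Neil1* step to EBs, *Pou5f1*, *Sox2*, *Zfp42* and *Dppa3* held without any 1 clone, whereas *Klf2* was lost without *Neil1* clone #9 (adjusted p = 0.126), *Esrrb* without *Neil1* clone #7 (0.138) and *Tbx3* without control clone #1 or #4 or *Neil1* clone #11 (0.105 to 0.168). For *Neil2*, no EB call held in every such fit: the count was 0 without *Neil2* clone #14, 2 without control clone #1, 3 without control clone #4 or *Neil2* clone #11, and 7 without *Neil2* clone #1. For the libraries labelled Apex1 the EB count was 0 without control clone #4, 2 without control clone #1 and 7 without control clone #7. In the step to EBs + RA, *Pou5f1*, *Klf2* and *Zfp42* held in all 3 genotypes without any 1 clone. Leaving out control clone #1 lowered the RA counts to 5 in *Neil1* and 4 in *Neil2*. *Nanog* was lost in *Neil1* without *Neil1* clone #9 (0.109) and in *Neil2* without control clone #1 or #7 or *Neil2* clone #11 (0.101 to 0.116), and *Esrrb* in *Neil1* without control clone #1 or #4 or *Neil1* clone #7 or #9 (0.128 to 0.171). With all groups in 1 fit the EB counts were 1, 1 and 0. With the clone as a replicate block, *Esrrb* lost its call for the *Neil2* step to EBs (adjusted p = 0.117), and *Klf5* and *Tbx3* gained one for the *Neil2* step to EBs + RA (adjusted p = 0.0905 and 0.0396).

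Another 20 genes of naive and general pluripotency were counted in the same comparisons. In control EBs 15 fell and *Lin28a* rose (median log2 fold change -0.88), and in control EBs + RA 19 fell and none rose from mESCs (median -4.14). From their own mESCs to EBs, 5 fell and 2 rose in the *Neil1* clones (median -0.01), and 5 fell and 2 rose in the *Neil2* clones (median -0.12). In control EBs + RA, *Tdgf1*, the Nodal co-receptor, fell by 7.74 ± 0.38 on the log2 scale and *Fgf4*, a growth factor gene activated by POU5F1 and SOX2, by 7.66 ± 0.24. In *Neil1* EBs 14 were higher than in controls and none lower (median 0.75), in *Neil2* EBs 10 and none (median 0.71), and in those labelled Apex1 12 and none (median 0.72). *Fgf4* was higher by 1.41 ± 0.08 in *Neil1* and by 1.44 ± 0.13 in *Neil2*, and *Tcl1* by 1.41 ± 0.25 in the libraries labelled Apex1. After RA the counts were 14 higher and 2 lower in *Neil1* (median 1.66), 15 higher and 1 lower in *Neil2* (median 1.96) and 15 higher and none lower in those labelled Apex1 (median 2.08). *Dppa5a*, a gene of early embryos and germ cells, was higher by 2.72 ± 0.42 in *Neil2* and by 3.48 ± 0.26 in the libraries labelled Apex1, and *Fbxo15*, a classical target of POU5F1 and SOX2, by 2.32 ± 0.33 in *Neil1*. The genes lower in the *Neil* clones were *Mycn*, a proliferation regulator also expressed in neural progenitors (-1.53 ± 0.22 in *Neil1* and -1.69 ± 0.23 in *Neil2*), and *Gbx2*, which also patterns the hindbrain (-0.62 ± 0.18 in *Neil1*). *Mycn* was the one gene of this list already called in *Neil* mESCs, at -1.02 ± 0.16 and -0.91 ± 0.13.

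Genes of the LIF axis, which acts upstream of the network, were counted next. Of 7 genes, *Stat3*, which transmits the LIF signal, and *Socs3*, its feedback inhibitor, were lower in control EBs than in mESCs (-1.09 ± 0.12 and -2.68 ± 0.20). In *Neil1* EBs both were lower still than in controls (-0.66 ± 0.15 and -1.23 ± 0.21), as they were in those labelled Apex1 (-0.78 ± 0.14 and -1.44 ± 0.34). In *Neil2* EBs neither was called, and the kinase gene *Pim3* was higher (0.69 ± 0.16). After RA, *Lifr*, *Il6st*, *Socs3* and *Pim3* were higher in *Neil1* (1.43 ± 0.44, 0.78 ± 0.33, 1.22 ± 0.50 and 0.70 ± 0.14), *Pim1* and *Pim3* in *Neil2* (0.56 ± 0.18 and 0.80 ± 0.15), and 0 of 7 were called for the libraries labelled Apex1. The median log2 fold change of the 7 genes in mutant against control EBs was -0.08, -0.05 and -0.20, beside 0.63, 0.60 and 0.63 for the 10 naive genes.

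Genes of the next pluripotent state were read beside the network. Of 10 formative and primed epiblast genes, 9 were tested in EBs. *Otx2*, a factor of the exit from naive pluripotency, was higher than in controls in EBs of all 3 mutants (1.11 ± 0.09, 1.13 ± 0.13 and 0.92 ± 0.13), whereas *Cdh2*, the N-cadherin gene of later epiblast and neural cells, was lower (-2.92 ± 0.22, -3.16 ± 0.21 and -2.19 ± 0.27). *Lef1*, a WNT effector, was lower in *Neil1* and *Neil2* EBs (-1.2 ± 0.24 and -1.63 ± 0.33), as it already was in their mESCs (-1.45 ± 0.21 and -1.49 ± 0.20). In total 4 were higher and 2 lower in *Neil1*, 2 and 2 in *Neil2*, and 3 and 1 in those labelled Apex1. After RA, 2 were higher and 6 lower in *Neil1*, 3 and 6 in *Neil2*, and 0 and 1 in those labelled Apex1. For genes called lower, the share of all genes was not set beside these counts. *Dnmt3b*, the de novo DNA methyltransferase gene, was higher in *Neil1* and *Neil2* EBs + RA (0.94 ± 0.16 and 1.04 ± 0.21).

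Markers of other cell types were counted in the same comparisons. In EBs, 8 primitive streak and mesoderm genes had a summed level of 233 to 322 CPM in controls, 35.5 to 42.0 in *Neil1*, 22.3 to 41.7 in *Neil2* and 65.6 to 82.6 in those labelled Apex1, with 7, 6 and 7 of them called lower and none higher. Endoderm genes summed to 276 to 588 CPM in control EBs, 472 to 698 in *Neil1*, 173 to 825 in *Neil2* and 68.5 to 88.5 in those labelled Apex1, where 8 of 9 were called lower (median log2 fold change -2.22), and 0 of 9 were called in *Neil1* or *Neil2* by edgeR (1 and 0 at an unadjusted p under 0.05). In EBs, 8 trophoblast genes summed to 358 to 381 CPM in controls and 149 to 204 CPM over the mutants, and in EBs + RA to 81.6 to 113 CPM in controls and 131 to 436 CPM over the mutants. The 8 endothelial genes summed to 65.4 to 70.1 CPM in control EBs + RA, 55.6 to 174 in *Neil1*, 61.7 to 78.8 in *Neil2* and 81.2 to 92.4 in those labelled Apex1. Of 5 genes of 2-cell-like cells, a rare state of mESC cultures, 0, 5 and 1 were called higher and none lower in EBs + RA, whereas in EBs 3, 0 and 5 were called lower and none higher. The share of all genes called lower was not set beside these counts, so they are not read as particular to these lists. The part of these cell types in the levels of the network genes was not tested.

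The genes moved together to different degrees over the 12 group means. Pearson's r of the log2 level was 0.98 to 1.00 between *Pou5f1*, *Nanog*, *Zfp42* and *Esrrb*, and 0.92 between *Sox2* and *Pou5f1*. *Klf4*, *Tbx3* and *Dppa3* followed *Pou5f1* less closely, at 0.60, 0.53 and 0.63, and *Klf4* and *Dppa3* were at -0.12. The 12 means share stages, so these values describe the pattern and carry no p. Among 3157 other genes of sufficient level and range, the 8 most like the mean of the 10 were *Zp3*, *Slc28a1*, *Nfatc2ip*, *H2-M6-ps*, *Tcl1*, *Prdm14*, *Hsd17b14* and *Dnmt3l*, with r from 0.985 to 0.988. *Dnmt3l*, a cofactor of de novo methylation, went from 608 CPM in control mESCs to 240 in EBs and 28.3 in EBs + RA, and *Prdm14*, a repressor that safeguards naive cells, from 25.4 to 15.7 and 0.661 CPM. The genes most like *Pou5f1* were *Gtsf1l*, *Mcf2*, *Tcl1* and *Lrrc34* (r = 0.992 to 0.994), and those most like *Sox2* were *Kirrel2*, *X99384*, *Phc1* and *Gngt2* (r = 0.982 to 0.985). *Mcf2* and the list gene *Nr0b1* lie on the X chromosome, where the mESC library of *Neil1* clone #11 had its zeros.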

How the data were processed

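RNA was prepared with the TruSeq RNA v2 kit, which does not mark strand, and sequenced on an Illumina HiSeq instrument. Per the labels and the study's methods, the authors aligned reads to NCBIM37 with TopHat2 2.0.9 and Bowtie2 2.1.0, counted reads per gene with HTSeq 0.5.4 and tested with DESeq2 1.6.3. The deposited files hold whole-number counts per gene, 1 file a library. Rows that name no gene were left out of library sizes: of all counts in a file, reads mapped to several places came to 11.4% to 19.9%, and reads in no gene to 5.86% to 8.85%.

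From these counts, CPM were scaled by TMM, and comparisons were fitted with edgeR 4.0.16 (R 4.3.3; quasi-likelihood test, robust, filterByExpr), with Benjamini-Hochberg adjustment over all genes tested and calls at an adjusted p under 0.1 and more than 0.5 log2 units of change. Gene lists were described by counts and medians, with no set test. The Apex1 libraries were technical duplicates and were summed to 1 sample per stage. Stage changes used the clones of 1 genotype, mutants were compared with controls within a stage, and the interaction used both stages of both genotypes; comparisons of mutants share their controls. Values between clones measure the spread of these clones only. No replicate pair was a copy.

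The labels give the same clone at each stage, so stages are paired by clone. Over 11207 genes, 13 of 27 same-clone pairs deviated together from their group means (r above 0.1), with r from -0.47 to 0.49 (mean 0.12). The mean for different clones was -0.06, which is no separate contrast, since deviations sum to 0 within a group. The pairs were unlike by the stages compared. Same-clone r was 0.18 to 0.49 between EBs and EBs + RA, -0.47 to 0.20 between mESCs and EBs, and -0.19 to 0.16 between mESCs and EBs + RA. The pairing by clone was thus seen between the EB stages and hardly in the steps from mESCs. Fits were checked on simulated counts. Alternatives were DESeq2 1.42.0, RLE or library-size scaling, no filter, FDR below 0.05, all groups in 1 fit, the replicate block, the Apex1 libraries as separate samples and leaving out each clone.

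The 10 genes, the gene lists and the tests were chosen with earlier results of these data known. All 10 genes are named throughout; of other lists, the called genes where 5 or fewer were called, otherwise genes among the 2 largest rises and 2 largest falls at a mean log2 CPM of at least 2. *Stat3*, *Socs3*, *Lef1*, *Cdh2*, *Otx2*, *Dnmt3b*, *Mycn* and *Gbx2* fall under this rule in the comparisons where they are named. Likeness was Pearson's r over the 12 group means among genes with at least 10 CPM in 1 group and a range of at least 2 log2 units.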

Additional observations from a re-analysis of the deposited data

Results flagged for a closer look

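Stage changes that differed from controls by the interaction term are listed as the difference of log2 fold changes, mutant minus control. The 3 genotypes share the same control clones, so these values are not independent. Each value holds the difference in mESCs as well as that in the later stage. Many of these calls depended on single clones, as given above. From mESCs to EBs, the *Neil1* clones differed for *Pou5f1* (0.79), *Sox2* (0.92), *Klf2* (0.90), *Zfp42* (0.83), *Esrrb* (0.67), *Tbx3* (-0.88) and *Dppa3* (1.65). For the same step, the *Neil2* clones differed for *Sox2* (0.88), *Klf2* (1.22), *Klf4* (0.68) and *Esrrb* (0.69), and the libraries labelled Apex1 for *Pou5f1* (1.32), *Sox2* (1.23), *Klf2* (1.57), *Zfp42* (1.09) and *Esrrb* (1.10).

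From mESCs to EBs + RA, the *Neil1* clones differed for *Pou5f1* (1.74), *Nanog* (1.60), *Klf2* (2.05), *Klf4* (1.70), *Klf5* (1.67), *Zfp42* (1.76), *Esrrb* (1.53) and *Dppa3* (2.21). The *Neil2* clones differed for *Pou5f1* (2.26), *Nanog* (2.26), *Klf2* (2.79), *Klf4* (0.90), *Zfp42* (1.91), *Esrrb* (2.33) and *Dppa3* (2.19). The libraries labelled Apex1 differed for *Pou5f1* (3.58), *Nanog* (3.47), *Klf2* (3.61), *Klf5* (2.01), *Zfp42* (2.62), *Esrrb* (3.61) and *Dppa3* (3.88). In mESCs labelled Apex1, *Dppa3* and *Klf2* were at -1.34 and -0.81 against controls, not called, which enters these differences. *Sox2*, *Klf2* and *Esrrb* differed in all 3 genotypes for the step to EBs, and *Klf2* and *Esrrb* did so for both steps.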

How the results depend on the processing

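Counts of called genes among the 10 that changed by more than 1.5 times were as follows. The share of all genes called under each setting was not set beside them. With DESeq2, the mESC counts went from 0 to 2 (*Neil1*) and to 1 (labelled Apex1), and without the filter on low counts to 2 (*Neil1*). With all genotypes and stages in 1 fit, the counts were 1 for *Neil1* mESCs, and in EBs 4 of 8 (*Neil1*), 2 of 6 (*Neil2*) and 1 of 6 (labelled Apex1). In that fit the interaction counts for the step to EBs were 1, 1 and 0. With the technical libraries of the clone labelled Apex1 as separate samples, its mESC count was 3 and its interaction count to EBs 8. With 1 clone left out, counts ranged from 4 to 8 (*Neil2* EBs against mESCs), 0 to 2 (*Neil1* mESCs against control), 0 to 4 (mESCs labelled Apex1), and for the interactions 5 to 10 (*Neil1*, EBs + RA), 0 to 7 (*Neil2*, EBs), 4 to 8 (*Neil2*, EBs + RA) and 0 to 7 (labelled Apex1, EBs). The causes were not tested, and a fit without 1 clone also has fewer samples.

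Directions turned for uncalled values, not all of them near 0. In the main fit, the *Dppa3* change from *Neil2* mESCs to EBs + RA was -0.36, and the *Neil2* interaction of *Sox2* to EBs + RA was -0.30. With library size alone, *Klf5* turned to 0.03 in the mESCs and -0.03 in the EBs labelled Apex1, and its interaction to EBs to -0.02 (*Neil1*) and -0.06 (labelled Apex1). With 1 library left out, *Klf5* ranged from -0.26 to 0.13 and -0.24 to 0.07 (*Neil1* mESCs and EBs), -0.36 to 0.05 (*Neil2* mESCs), -0.22 to 0.18 and -0.07 to 0.18 (mESCs and EBs labelled Apex1), and its interaction to EBs from -0.27 to 0.29 (*Neil1*) and -0.21 to 0.33 (labelled Apex1). In *Neil1* mESCs *Nanog* ranged from -0.03 to 0.11, *Klf2* from -0.08 to 0.06 and *Klf4* from -0.17 to 0.36. In *Neil2* mESCs *Klf4* ranged from -0.14 to 0.06 and *Esrrb* from -0.12 to 0.03, and in mESCs labelled Apex1 *Esrrb* from -0.02 to 0.13. From *Neil2* mESCs, *Klf2* ranged from -0.15 to 0.17 to EBs and *Dppa3* from -0.84 to 0.2 to EBs + RA, and the *Sox2* interaction to EBs + RA from -0.57 to 0.05.

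Scaling by library size alone moved the median log2 fold change of all genes most in *Neil2* EBs + RA against mESCs, to 0.245 from 0.02 with TMM, and moved the share of called genes that were higher from 51.8% to 64.5% there, from 51.3% to 61.6% in *Neil1*, and for interactions from 41.9% to 31.5% (*Neil1*, EBs), 38.5% to 19.2% and 62.1% to 49.7% (labelled Apex1, EBs and EBs + RA). The replicate block by clone changed no call of the 10 genes other than those given beside the results. Across genotypes, libraries of the same replicate number, which is not the clone number, had a mean correlation of 0.01 over 18 pairs, 7 above 0.1. In EBs + RA of *Neil1* and control all 3 pairs of the same replicate number were above 0.1 (0.25, 0.29 and 0.22). The 6 other pairs were at or under 0, which deviations that sum to 0 within a group favour. In that comparison the replicate block left the count at 10. With that replicate block the *Neil2* EB count was 4, as *Pou5f1* and *Nanog* were not called, and the other counts against control did not change. No paired analysis was possible for the libraries labelled Apex1 because they come from 1 clone.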
